A study of Mus musculus with 5 samples.

Results

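Secondary granule and mature neutrophil genes were examined in sorted mouse stem and progenitor cells. The group was set by gene symbol: Lcn2, Ltf, Camp, Ngp, Mmp8, Cd177, Mmp9, S100a8, S100a9 and Retnlg, read through each probe set that the platform annotation gives exactly 1 symbol. By this rule 9 of the 10 genes had a value, in 10 probe sets, among 18194 genes in all; Retnlg was not analysed here. The samples were 2 arrays from MSI2-inducible mice and 3 from control rtTA mice, all of strain C57BL/6. MSI2-inducible mice carry a transgene for the RNA-binding protein MSI2, and rtTA, the doxycycline-dependent transactivator, is the genotype given for the controls. The labels used here give no promoter, inducing agent, duration, age or sex, and do not say whether the MSI2-inducible mice also carry rtTA. Sample labels give lineage-low bone marrow cells positive for both Sca1 and Kit (LSK), but the text of the series gives Sca1-negative, Kit-positive cells (LK), so the Sca1 gate is not settled. Separate mice are not stated for the arrays of either genotype; p-values therefore reflect the spread among arrays, part of which may be technical.

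Neutrophils build their granules in sequence as they mature in the bone marrow. Primary granule proteins are made first, at the promyelocyte stage, secondary granule proteins at the myelocyte and metamyelocyte stages, and gelatinase granule proteins after them. The secondary granule genes depend on the transcription factor C/EBP-epsilon, and stem cells are not known to make their proteins in quantity.

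Values are log2 of the deposited intensities, differences are MSI2-inducible minus control rtTA, and the array replicates are named by their numbers in the labels. With so few arrays, all values have limited precision. Among markers of stem and progenitor cells, Cd34 lay at 10.20 and 11.00 in the MSI2-inducible arrays and between 10.37 and 10.87 in control arrays. All 14 measured markers of this kind averaged above 5.57, the median of all probe sets. Of the 18194 genes, each read by its brightest probe set, 10567 did so too, and this alone does not identify the cells. Kit had 8.80 and 9.50 in MSI2-inducible arrays, and 9.19 to 9.66 in control arrays. The Sca1 gene Ly6a was not analysed here. The mouse Msi2 gene lay at 11.00 and 11.43 in MSI2-inducible arrays and between 11.67 and 11.76 in control arrays, and 7 of its 8 probe sets averaged lower in MSI2-inducible arrays. Whether a probe set reads the transgene is not given, so these values check nothing about the labels. Over all genes, Pearson r lay between 0.965 and 0.989 for pairs of arrays. MSI2-inducible replicate 1 differed by more than 1 on the log2 scale from each other array in 7.73% to 12.0% of genes. Between control replicates 1 and 3 this share was 2.81%, the lowest of the control pairs. It was 6.9968% between control replicates 1 and 2 and 6.5351% between control replicates 2 and 3. Control replicate 2 thus also stood apart from the other control arrays.

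For all 9 measured genes the gap between the MSI2-inducible arrays was wider than the difference between the group means. All 9 were higher in MSI2-inducible replicate 1 than in each of the other 4 arrays, a pattern seen in 28.3% of all genes. In MSI2-inducible replicate 2, 7 of the 9 lay below all 3 control arrays, against 26.4% of all genes. Both held together for the same 7 genes, which was the case for 7.38% of all genes. Between genotypes, 0 of the 9 genes passed limma's test at an adjusted p of 0.05 in either direction, where 0.0165% of all genes passed as higher and 0.0055% as lower in MSI2-inducible arrays.

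Among the secondary granule genes, Lcn2 encodes lipocalin 2, which withholds iron from bacteria by binding their siderophores. Its log2 intensity was 11.47 and 6.94 in MSI2-inducible replicates 1 and 2, against 8.83, 7.05 and 8.95 in control replicates 1, 2 and 3. MSI2-inducible replicate 1 was high, and MSI2-inducible replicate 2 lay beside control replicate 2 at the low end, so the groups overlapped. On the linear scale MSI2-inducible replicate 1 stood 23.0-fold over MSI2-inducible replicate 2, while the highest control array stood 3.74-fold over the lowest. The group means were 9.20 ± 3.20 (SD, n = 2) in MSI2-inducible arrays and 8.28 ± 1.06 (SD, n = 3) in control arrays. Their difference of 0.92 had a 95% interval from -2.36 to 4.21 (limma adjusted p = 0.963).

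Ltf encodes lactoferrin, an iron-binding protein of secondary granules. It lay at 12.86 and 9.13 in MSI2-inducible replicates 1 and 2, against 10.75, 9.60 and 10.80 in control replicates 1, 2 and 3. The order of arrays was that of Lcn2, with control replicates 1 and 3 almost level and control replicate 2 beneath them. The means were 10.99 ± 2.64 (SD, n = 2) in MSI2-inducible arrays and 10.38 ± 0.68 (SD, n = 3) in control arrays, and the difference of 0.61 had an interval from -2.01 to 3.23 (limma adjusted p = 0.975).

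Camp encodes the cathelicidin precursor, whose cleaved peptide kills microbes. Its values were 13.15 and 10.36 in MSI2-inducible replicates 1 and 2, against 11.75, 11.02 and 11.69 in control replicates 1, 2 and 3. The MSI2-inducible arrays lay on either side of all the controls. The difference of 0.27 had an interval from -1.67 to 2.20 (limma adjusted p = 0.982). Ngp encodes neutrophilic granule protein, a relative of the cathelicidins in the cystatin superfamily. Ngp lay at 12.72 and 9.78 in MSI2-inducible replicates 1 and 2, against 11.12, 9.87 and 11.21 in control replicates 1, 2 and 3. MSI2-inducible replicate 2 was within 0.1 of control replicate 2, and the difference between groups was 0.52 (interval -1.67 to 2.71, limma adjusted p = 0.972).

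Mmp8, the neutrophil collagenase, followed the others least closely. It lay at 6.21 and 3.98 in MSI2-inducible replicates 1 and 2, against 4.65, 4.82 and 3.80 in control replicates 1, 2 and 3. Here control replicate 2 was the highest control array and MSI2-inducible replicate 2 lay inside the control range. All these values but that of MSI2-inducible replicate 1 were under 5.57, the probe set median, and differences among such dim values have an uncertain size. The difference was 0.68 (interval -0.99 to 2.34, limma adjusted p = 0.944).

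Cd177, a surface protein of neutrophils that is also kept in secondary granules, had the widest spread after Lcn2. Its values were 10.15 and 5.89 in MSI2-inducible replicates 1 and 2, against 7.66, 6.25 and 7.93 in control replicates 1, 2 and 3. The first MSI2-inducible array was 2.22 above the highest control array and the second 0.36 beneath the lowest. The difference between groups was 0.74 (interval -2.30 to 3.79, limma adjusted p = 0.970).

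Mmp9 encodes gelatinase B, the marker enzyme of gelatinase granules, and it differed from the secondary granule genes in its order of arrays. Its brighter probe set lay at 8.12 and 4.86 in MSI2-inducible replicates 1 and 2, against 5.23, 4.52 and 4.97 in control replicates 1, 2 and 3. MSI2-inducible replicate 1 alone was high, and the other 4 arrays lay within 0.72 of each other, all below the probe set median. The second probe set gave 7.67 and 4.99 in MSI2-inducible arrays and 4.99, 4.87 and 4.92 in control arrays, so both probe sets showed this. The Mmp9 difference of 1.58 was the largest of the group (interval -0.63 to 3.79, limma adjusted p = 0.913), and it was -0.05 when MSI2-inducible replicate 1 was left out.

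S100a8 and S100a9 encode the subunits of calprotectin, the abundant calcium- and zinc-binding complex of neutrophil cytoplasm. S100a8 lay at 13.59 and 11.18 in MSI2-inducible replicates 1 and 2, against 12.64, 11.71 and 12.60 in control replicates 1, 2 and 3. S100a9 lay at 14.52 and 12.66 in MSI2-inducible replicates 1 and 2, against 13.59, 12.75 and 13.59 in control replicates 1, 2 and 3. Both genes were above the probe set median in all 5 arrays, and the order of arrays differed between them only in control replicates 1 and 3, which lay within 0.1 of each other. The highest value of any probe set in the table was 15.18. The differences were 0.07 for S100a8 (interval -1.69 to 1.83, limma adjusted p = 0.995) and 0.28 for S100a9 (interval -1.14 to 1.70, limma adjusted p = 0.978).

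**Figure D1:**
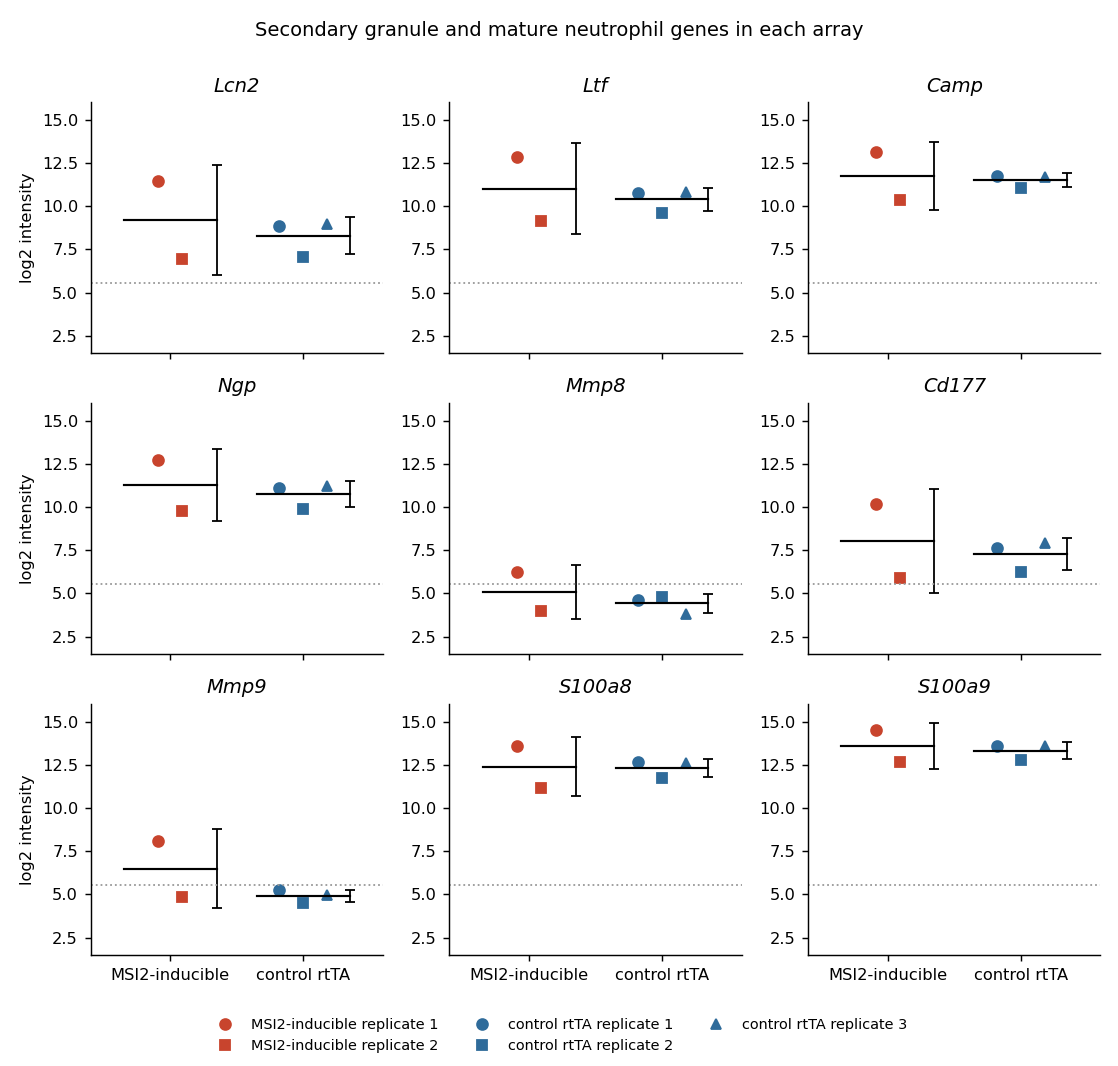
Log2 intensity (y axis) of the 9 measured genes in each array, with MSI2-inducible arrays left and control rtTA arrays right; black lines are group means, bars are ±1 SD (n = 2 and n = 3) and the dotted line is the median of all probe sets (5.57). MSI2-inducible replicate 1 is the highest array in every panel, and control replicate 2 lies below the other control arrays for all genes but Mmp8.

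Seen together, 5 of the 9 genes had the same order of arrays. Camp and S100a8 departed from it only in control replicates 1 and 3, and Mmp8 and Mmp9 departed further. Lcn2, Ltf, Ngp, Cd177 and S100a9 shared the order MSI2-inducible replicate 1, control replicate 3, control replicate 1, control replicate 2, MSI2-inducible replicate 2, and 0.901% of all genes had it. Control replicate 2 was the lowest control array for 8 of the 9 genes, against 32.7% of all genes. The median over the 9 genes, taken as log2 intensity minus the control mean, reached 1.99 in MSI2-inducible replicate 1 and -1.13 in MSI2-inducible replicate 2, and control replicates 1, 2 and 3 had 0.33, -0.61 and 0.28. Over all genes the same medians lay between -0.03 and 0.03. In bulk RNA, fewer cells of a type and less RNA per cell cannot be told apart.

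The size of the swing varied from gene to gene. Between the MSI2-inducible arrays it was 4.53 for Lcn2, 4.26 for Cd177, 3.73 for Ltf, 3.26 for Mmp9, 2.94 for Ngp, 2.79 for Camp, 2.42 for S100a8, 2.23 for Mmp8 and 1.86 for S100a9. All 9 exceeded 1 on the log2 scale, which 4.16% of genes did in this direction. Of the 18194 genes, 7 had a larger excess in MSI2-inducible replicate 1 than Lcn2 (0.0385%), and 173 had a larger one than S100a9 (0.951%). The median over all genes was 0.06.

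**Figure D2:**
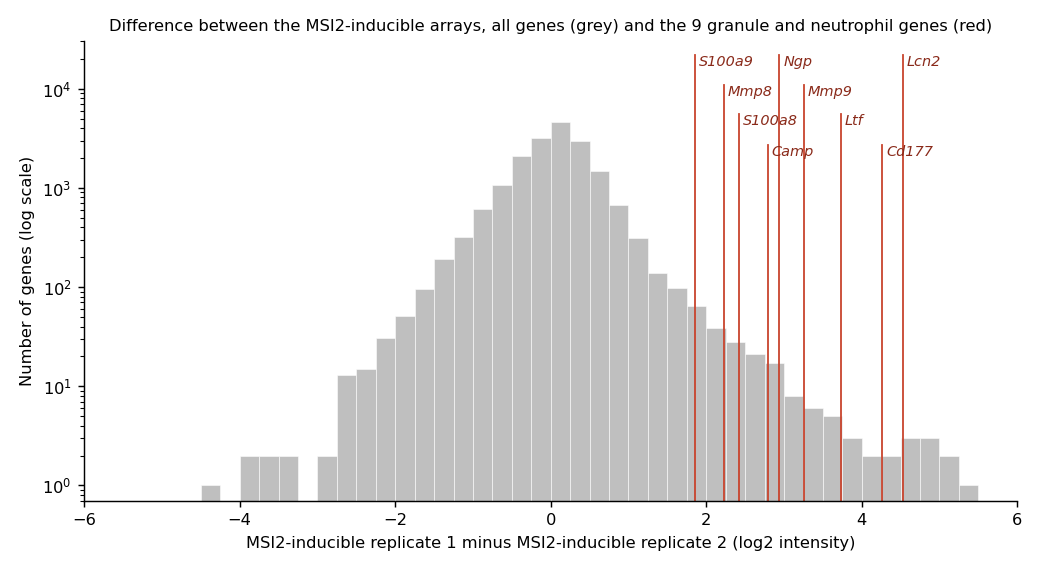
Histogram of MSI2-inducible replicate 1 minus MSI2-inducible replicate 2 in log2 intensity (x axis) over 18194 genes, with the number of genes on a log y axis; red lines mark the 9 granule and neutrophil genes. All 9 lie in the right tail, from 1.86 (S100a9) to 4.53 (Lcn2).

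The genotype comparison stayed without a call also at an unadjusted limma p under 0.05, with 0 of the 9 genes in each direction, against 2.87% of all genes higher and 2.77% lower. All 9 differences were above 0, with a median of 0.61, but 50.3% of all genes had a higher MSI2-inducible mean, with a median of 0.00. The arrays of the groups overlapped for each of the 9, whereas they did not for 9.27% of all genes in the higher and 9.39% in the lower direction. The sign rested on MSI2-inducible replicate 1. Without that array all 9 differences were below 0, from -1.39 (Cd177) to -0.05 (Mmp9), with a median of -1.13. Without MSI2-inducible replicate 2 all 9 were above 0, from 1.21 (S100a9) to 3.21 (Mmp9), with a median of 1.99. Limma's adjusted p then lay between 0.225 and 0.407, with the single array left assumed to vary like the control arrays. Without control replicate 2 the median difference was 0.22, and S100a8 (-0.24) and S100a9 (-0.00) were below 0.

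**Figure D3:**
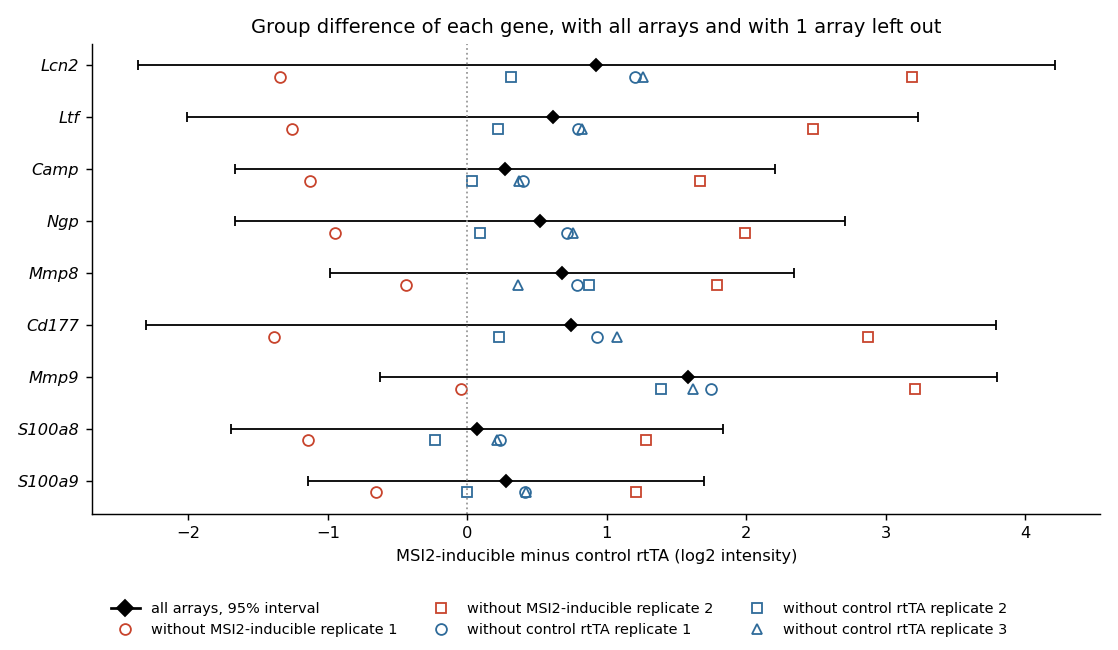
MSI2-inducible minus control rtTA difference in log2 intensity (x axis) for each gene; filled diamonds with bars are the values with all 5 arrays and their 95% intervals, and open symbols are the values with 1 array left out. All intervals span 0, and leaving out MSI2-inducible replicate 1 moves each gene below 0 while leaving out MSI2-inducible replicate 2 moves each well above it.

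Promoter sequence is shown for genes picked by hand, as 250 bases before the RefSeq start site on the gene's own strand (build GRCm38.p6). Cd177, which had the order of arrays of Lcn2 and a window without the C/EBP letters, is not among them. A RefSeq window was at hand for 9 of the 10 genes, all but Mmp9, Retnlg included. Capitals mark matches to TTNNGCAA (the core letters of a C/EBP site), GAGGAA (PU.1, a myeloid ETS factor) or TGTGGT (Runx factors), on either strand. Lcn2 (chr2:32387740-32387989, minus strand), Ltf (chr9:111019042-111019291, plus strand), Ngp (chr9:110419558-110419807, plus strand) and S100a9 (chr3:90695722-90695971, minus strand) hold the C/EBP letters. Camp (chr9:109849457-109849706, minus strand) and S100a8 (chr3:90668821-90669070, plus strand) do not, and are shown beside their relative Ngp and their partner S100a9.
Lcn2: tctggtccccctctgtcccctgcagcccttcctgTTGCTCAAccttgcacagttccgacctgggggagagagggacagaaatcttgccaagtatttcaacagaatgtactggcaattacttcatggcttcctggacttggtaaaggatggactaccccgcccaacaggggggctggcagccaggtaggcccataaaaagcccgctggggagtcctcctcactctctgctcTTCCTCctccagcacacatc
Ltf: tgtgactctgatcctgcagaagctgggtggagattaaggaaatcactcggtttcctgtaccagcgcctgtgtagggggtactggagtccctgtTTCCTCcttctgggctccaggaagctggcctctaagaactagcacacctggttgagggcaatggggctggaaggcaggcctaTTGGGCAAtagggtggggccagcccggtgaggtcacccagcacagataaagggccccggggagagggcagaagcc
Ngp: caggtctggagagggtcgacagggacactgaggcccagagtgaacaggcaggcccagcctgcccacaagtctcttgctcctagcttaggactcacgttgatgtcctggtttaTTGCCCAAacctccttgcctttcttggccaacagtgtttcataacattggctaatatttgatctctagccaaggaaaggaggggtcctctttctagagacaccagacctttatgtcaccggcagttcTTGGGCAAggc
Camp: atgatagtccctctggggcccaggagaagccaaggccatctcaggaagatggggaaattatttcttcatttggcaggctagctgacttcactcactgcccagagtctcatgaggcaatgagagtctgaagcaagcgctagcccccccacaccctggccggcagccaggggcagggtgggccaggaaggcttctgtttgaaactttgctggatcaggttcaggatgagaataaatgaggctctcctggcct
S100a9: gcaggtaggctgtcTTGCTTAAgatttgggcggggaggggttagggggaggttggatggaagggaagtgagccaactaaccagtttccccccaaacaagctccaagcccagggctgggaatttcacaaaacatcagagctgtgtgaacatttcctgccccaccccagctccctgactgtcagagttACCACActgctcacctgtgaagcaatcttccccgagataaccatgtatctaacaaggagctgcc
S100a8: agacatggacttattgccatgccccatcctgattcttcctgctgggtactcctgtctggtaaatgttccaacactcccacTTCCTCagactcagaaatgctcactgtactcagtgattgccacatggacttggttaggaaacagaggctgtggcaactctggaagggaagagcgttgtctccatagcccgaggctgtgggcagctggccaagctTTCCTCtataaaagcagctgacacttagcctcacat

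Over windows of 300 bases (250 before and 50 after the start), TTNNGCAA was found in 6 of 9 windows (Lcn2, Ltf, Mmp8, Ngp, Retnlg and S100a9), against 10.8% of 32851 windows in the table. Ngp held it at 2 places. GAGGAA was found in 5 of 9 windows (Cd177, Lcn2, Ltf, Mmp8 and S100a8), against 28.3%, and TGTGGT in 2 of 9 (Ltf, there in the bases after the start, and S100a9), against 16.8%. No 2 matches overlapped. The motifs are short and shared with other factors of each family, so a match is a description of the letters. S100a8 and S100a9 are neighbours with 0 protein-coding genes between them in the RefSeq gene table, and Camp and Ngp lie on the same chromosome with 8 between them, followed by Ltf after 20 more.

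Other genes of neutrophil maturation were also high in MSI2-inducible replicate 1. From a list of 52 further secondary granule, gelatinase granule and late neutrophil genes, 43 had a value, and none of these passed limma's test between genotypes in either direction. At an unadjusted limma p under 0.05, 0 were higher and 1 was lower, against 2.87% and 2.77% of all genes. In MSI2-inducible replicate 1, 36 of the 43 lay above every other array, against 28.3% of all genes. There 31 exceeded MSI2-inducible replicate 2 by more than 1, against 4.16% of all genes. Relative to the control mean, the median of the list reached 1.43 in MSI2-inducible replicate 1 and -0.30 in MSI2-inducible replicate 2, and control replicates 1, 2 and 3 had 0.27, -0.29 and 0.08. Its median difference between groups was 0.45, with 35 genes higher and 8 lower.

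The widest gaps between the MSI2-inducible arrays in this list were those of Fpr2 and Olfm4. Fpr2, a formyl peptide receptor of phagocytes, lay at 10.35 and 5.20 in MSI2-inducible replicates 1 and 2, against 6.84, 6.93 and 6.37 in control replicates 1, 2 and 3. Olfm4, a secondary granule protein of a neutrophil subset, lay at 6.84 and 1.97 in MSI2-inducible arrays, against 2.98, 1.71 and 2.98 in control arrays. For Fpr2 the controls were level, and for Olfm4 control replicate 2 was low with MSI2-inducible replicate 2. The secreted protein gene Wfdc21 differed by 4.09 between the MSI2-inducible arrays, the ficolin gene Fcnb by 3.75 and the acute phase gene Orm1 by 3.33. Ifitm6, of the interferon-induced transmembrane family, lay at 9.75 and 5.76 in MSI2-inducible replicates 1 and 2, against 7.18, 6.07 and 7.10 in control replicates 1, 2 and 3. Values of Olfm4 and Orm1 in MSI2-inducible replicate 2 and in all control arrays lay under 5.57.

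The cell surface receptors of the list described next were alike in a high MSI2-inducible replicate 1 and differed in MSI2-inducible replicate 2. The C-type lectin receptor genes Clec4d and Clec4e of the same list were not highest in MSI2-inducible replicate 1. Cxcr2, the receptor that draws neutrophils out of the marrow, lay at 7.52 and 5.37 in MSI2-inducible arrays, against 5.73, 4.06 and 5.08 in control arrays. Itgam, the integrin CD11b, lay at 8.23 and 5.53 in MSI2-inducible arrays, against 5.58, 4.93 and 5.53 in control arrays. Csf3r, the receptor for G-CSF, lay at 9.23 and 7.98 in MSI2-inducible arrays, against 7.94, 7.47 and 7.98 in control arrays. The second MSI2-inducible array was thus within the control range for these 3 receptors, and their differences of 1.49, 1.53 and 0.81 did not pass (limma adjusted p = 0.912 for each). It was beneath all controls for Fpr2 (above) and also for Ltb4r1 and Trem3. Ltb4r1, a receptor for leukotriene B4, lay at 7.51 and 5.90 in MSI2-inducible arrays, against 6.73, 6.90 and 6.65 in control arrays. Trem3, a receptor of myeloid cells, lay at 8.92 and 5.92 in MSI2-inducible arrays, against 8.15, 6.43 and 7.28 in control arrays.

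Primary granule genes, which precede the secondary ones in maturation, were not highest in MSI2-inducible replicate 1, with 1 exception. Of 14 listed, 11 had a value and 0 passed limma's test in either direction. At an unadjusted limma p under 0.05, 1 was higher and 1 lower, against 2.87% and 2.77% of all genes. Igsf6 was the 1 gene above every other array in MSI2-inducible replicate 1, against 28.3% of all genes. Mpo, the myeloperoxidase gene, lay at 13.18 and 13.03 in MSI2-inducible arrays and at 13.21, 12.81 and 13.12 in control arrays. Elane, neutrophil elastase, lay at 11.74 and 9.94 in MSI2-inducible replicates 1 and 2, against 11.83, 10.09 and 11.18 in control replicates 1, 2 and 3. MSI2-inducible replicate 1 was thus level with control replicate 1, while MSI2-inducible replicate 2 and control replicate 2 were low. The membrane protein gene Ms4a3 behaved likewise, at 10.22 and 8.21 in MSI2-inducible arrays, against 10.26, 8.14 and 9.49 in control arrays. Igsf6, Prtn3 (proteinase 3), Ctsg (cathepsin G) and Rab27a, a granule-docking GTPase, differed by 1.76, 1.40, 0.76 and -0.21 between the MSI2-inducible arrays. Relative to the control mean, this list had medians of 0.13 in MSI2-inducible replicate 1 and -0.30 in MSI2-inducible replicate 2, and control replicates 1, 2 and 3 had 0.22, -0.35 and 0.11. Its median difference between groups was -0.05, against 0.61 for the secondary granule and mature neutrophil genes; the contrast between the lists was not tested.

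As a list, transcription factors of the granulocyte lineage stayed near the control mean in both MSI2-inducible arrays. Cebpd had the order of arrays of Camp and S100a8, which is not that of Lcn2. The 11 measured of 12 listed had medians of 0.04 and 0.00 in MSI2-inducible replicates 1 and 2, against values between -0.12 and 0.15 in control arrays. Limma's test passed 0 in either direction. At an unadjusted limma p under 0.05 there were also 0, against 2.87% of all genes higher and 2.77% lower. Cebpd, of the C/EBP family, lay at 7.91 and 6.07 in MSI2-inducible arrays, against 7.31, 6.50 and 6.90 in control arrays, a gap of 1.83 between the MSI2-inducible arrays that came close to the 1.86 of S100a9. Klf5, a zinc finger factor, lay at 5.78 and 4.55 in MSI2-inducible arrays, against 6.34, 4.69 and 4.61 in control arrays, so control replicate 1 was its highest array. Gfi1, a repressor needed for neutrophil formation, lay at 10.31 and 10.35 in MSI2-inducible arrays and at 10.98, 10.66 and 10.64 in control arrays, a difference of -0.43 (limma adjusted p = 0.902). The largest differences after it were those of Spi1, which encodes PU.1 (0.27), and Cebpa (0.27). Cebpe, the factor named for secondary granule genes, was not analysed here.

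Genes with the profile most like that of the group were sought among 9090 genes brighter than the median gene, by the root mean square distance between each gene's deviations from its own mean over the 5 arrays and the median deviations of the 9 genes. That profile had 1.78 for MSI2-inducible replicate 1 and -1.17 for MSI2-inducible replicate 2, against 0.15, -1.02 and 0.18 for control replicates 1, 2 and 3. The nearest was Ptdss2, a phosphatidylserine synthase, at a distance of 0.11. Then came Pglyrp1, a secondary granule protein that binds peptidoglycan (0.22), the chitinase-like gene Chil1 (0.23), the actin-organizer gene Rflnb (0.26), 4930438A08Rik (0.27) and the leukocyte integrin gene Itgb2l (0.31). Pglyrp1 and Itgb2l also stand in the list of late neutrophil genes. Within the group, the distances ran from 0.05 for Ngp to 0.74 for Mmp8. The 5 arrays make such likeness a description only.

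Markers of other cells also stood apart in MSI2-inducible replicate 1. The 13 measured erythroid markers of 16 had a median of 1.69 there and 0.26 in MSI2-inducible replicate 2, and between -0.19 and 0.18 in control arrays. Their summed intensity was 13629.7 to 17767.8 in MSI2-inducible arrays and 10739.8 to 11614.1 in control arrays. The leading erythroid genes were Epb42, Slc4a1, the anion exchanger of red cells, and Trim10, with differences of 2.01, 1.95 and 1.73 (limma adjusted p 0.912, 0.934 and 0.900). Slc4a1 lay at 10.29 and 4.91 in MSI2-inducible arrays, against 6.19, 3.72 and 7.06 in control arrays, which put control replicate 2 low again. Epor, Aqp1 and Car1 lay above all controls in both MSI2-inducible arrays, as 9.27% of all genes did. Their differences were 1.16, 1.39 and 1.24 (limma adjusted p 0.616, 0.679 and 0.870). Of the 13 erythroid markers, 12 averaged higher and 1 lower in MSI2-inducible arrays.

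Monocyte and macrophage markers (16 of 18 measured) had medians of 0.73 for MSI2-inducible replicate 1, -0.02 for MSI2-inducible replicate 2 and between -0.11 and 0.01 for the control arrays. Their summed intensity was 2823.4 to 4637.0 in MSI2-inducible arrays and 2432.5 to 2951.6 in control arrays. Ccr2, the monocyte chemokine receptor, lay at 8.50 and 8.09 in MSI2-inducible arrays, against 6.78, 6.72 and 6.38 in control arrays, so both MSI2-inducible arrays were high (difference 1.67, limma adjusted p = 0.226). Klf4 and Fcgr1 differed by 1.57 and 0.95 (limma adjusted p 0.679 and 0.883). B cell markers (11 of 12) had medians of 0.62 and -0.02 in MSI2-inducible arrays, against -0.09 to 0.03 in control arrays, and summed to 850.5 to 1167.4 in MSI2-inducible arrays and 472.9 to 730.5 in control arrays. Vpreb1, a surrogate light chain of B cell precursors, differed by 2.22, the B cell receptor subunit Cd79a by 1.07 and the recombinase Rag1 by 1.05 (limma adjusted p 0.912, 0.913 and 0.671). Among the 11 B cell markers, 7 averaged higher and 4 lower in MSI2-inducible arrays, and only 2 averaged above 5.57. Rag1 lay under 5.57 in all arrays, and Cd79a in all but MSI2-inducible replicate 1.

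Eosinophil, basophil and mast cell markers (12 of 16) had another pattern, with medians of -0.01 and -0.34 in MSI2-inducible replicates 1 and 2, against 0.38, -0.59 and 0.32 in control replicates 1, 2 and 3. The eosinophil peroxidase gene Epx lay at 6.81 and 3.73 in MSI2-inducible arrays, against 8.69, 3.78 and 7.75 in control arrays. The eosinophil granule gene Prg3 had 5.03 and 3.79 in MSI2-inducible arrays, against 7.17, 3.46 and 6.18 in control arrays. Prg2, another of them, had 8.31 and 3.51 in MSI2-inducible arrays, against 9.21, 3.62 and 8.67 in control arrays. Both replicates numbered 2 were thus low in Epx, Prg3 and Prg2, as in Lcn2, Ltf, Camp, Ngp and Cd177 but not in Mmp8. Other genes of the list went otherwise. Siglecf was highest in control replicate 2 (7.98), and Mcpt8 (6.76) and Gata2 (10.69) were highest in MSI2-inducible replicate 2. Summed intensity of this list was 1952.2 to 2220.6 in MSI2-inducible arrays and 1666.3 to 3281.8 in control arrays.

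Megakaryocyte markers (8 of 10) had medians of -0.17 and -0.16 in MSI2-inducible replicates 1 and 2, against -0.08 to 0.20 in control arrays. T and NK cell markers (11 of 14) had 0.22 and -0.10 in MSI2-inducible arrays, against -0.01 to 0.02 in control arrays. Endothelium and stroma markers (10 of 10) had -0.58 and -0.22 in MSI2-inducible arrays, against -0.08 to -0.02 in control arrays. Stem and progenitor markers (14 of 16) had -0.35 and 0.19 in MSI2-inducible arrays, against -0.10 to 0.09 in control arrays, so they were lowest in the array where the granule genes were highest. Summed intensities were 886.9 to 1109.8, 1175.3 to 1232.9, 705.5 to 788.4 and 13323.8 to 17833.9 in MSI2-inducible arrays, against 1593.9 to 1957.7, 930.7 to 1425.4, 1015.4 to 1177.7 and 15804.3 to 16586.0 in control arrays, in the same order of lists. The leading megakaryocyte genes were the platelet chemokine gene Pf4, Vwf (von Willebrand factor) and Ppbp, with differences of -1.38, -0.95 and -0.93 (limma adjusted p 0.616, 0.461 and 0.917). Those of T and NK cells were the chemokine gene Ccl5, Prf1 (perforin) and Gzma (a granzyme), with 1.56, 0.66 and -0.51 (limma adjusted p 0.508, 0.827 and 0.970). Among endothelial and stromal genes, Cxcl12, the chemokine that holds stem cells in the marrow, Cdh5 and Pecam1, both endothelial adhesion genes, had -2.16, -1.02 and -0.80 (limma adjusted p 0.870, 0.934 and 0.914). Among stem cell genes, the surface receptor gene Slamf1 and the transcription factor genes Mecom and Hlf had -1.27, -0.58 and -0.26 (limma adjusted p 0.883, 0.870 and 0.927). Pf4, Vwf, Ccl5, Cxcl12, Slamf1 and Vpreb1 had both MSI2-inducible arrays on the same side of all controls, unlike the 9 granule and neutrophil genes. So did Mecom, Prf1, Rag1, Ccr2, Klf4, Fcgr1 and Trim10. The same held for Epor, Aqp1, Car1, Rhd, Irf8, Cd22 and Cd3g (higher) and for Cma1 and Lepr (lower). Cd22, Cd3g, Cma1 and Lepr lay under 5.57 in all arrays. Most measured genes of these marker lists had arrays that overlapped between groups. Over all genes the groups did not overlap for 9.27% in the higher and 9.39% in the lower direction. No gene of these marker lists is at 0 in the table, which does not show that each transcript was present. In each list 0 genes passed limma's test between genotypes; at an unadjusted p under 0.05 the counts of genes higher and lower were 3 and 0 for erythroid, 3 and 0 for monocyte, 1 and 0 for B cell, 0 and 0 for eosinophil, 0 and 2 for megakaryocyte, 2 and 0 for T and NK cell, 0 and 1 for endothelium and 0 and 2 for stem cell markers. Over all genes, 2.87% were higher and 2.77% lower at that unadjusted limma p. The part of other cells in the values of the granule genes was not tested. As a measure of RNA quality, the signal at the 3' end minus the 5' end was taken for 2 transcripts. For Gapdh it was 2.22 in both MSI2-inducible arrays and 2.14, 2.60 and 2.40 in control replicates 1, 2 and 3. Control replicate 2, mostly the lowest control array in the granule genes, was thus the highest for Gapdh. For beta-actin it was -0.06 and -0.07 in MSI2-inducible replicates 1 and 2. Control replicates 1, 2 and 3 had -0.15, -0.15 and 0.01. The part of RNA quality in the array pattern was not tested.

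**Figure D4:**
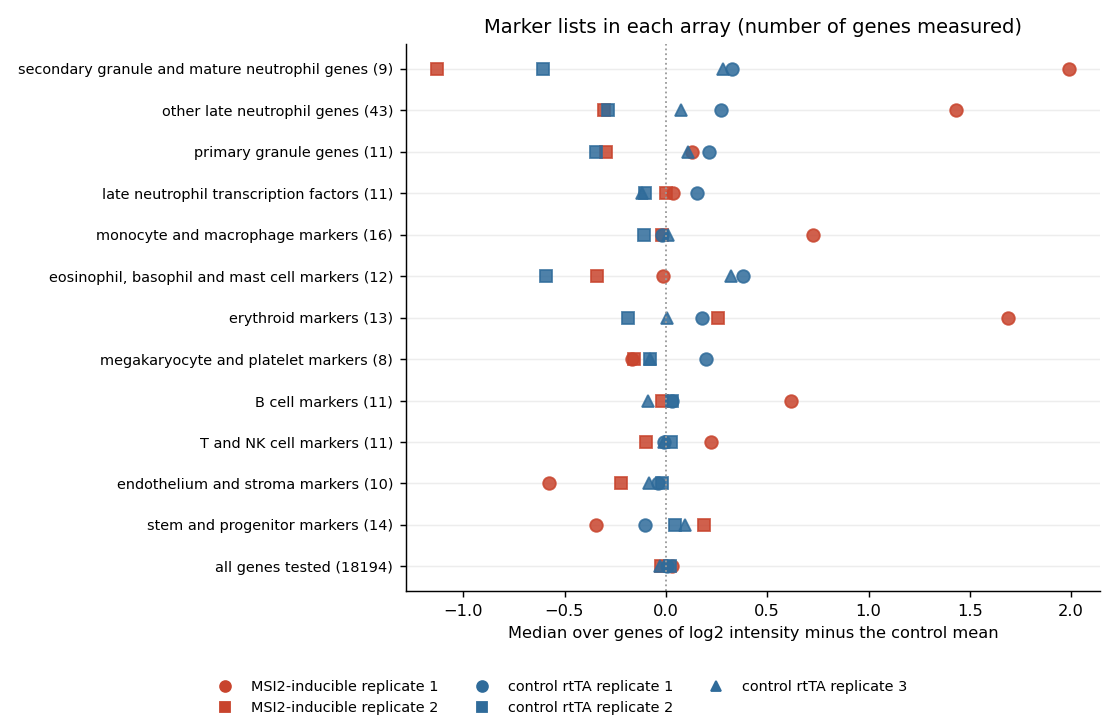
Median over the measured genes of each list of log2 intensity minus the control mean (x axis), with 1 symbol per array and the number of genes in brackets. In the top row the arrays spread from -1.13 to 1.99, and in the primary granule row from -0.35 to 0.22.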

How the data were processed

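RNA of 5 samples was amplified linearly, labelled with biotin and hybridised to Affymetrix mouse expression arrays, per the labels' protocols and the series text. The authors deposited linear intensities that they had normalized across the arrays; the submitters' processing notes name RMA, affy and R 2.11.0, with order and settings not given in the sources used here. Array medians lay between 46.4 and 48.3. RMA shares information between arrays and compresses high and low signal.

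Deposited intensities were converted to log2, without a pseudocount. Names of probe sets come from the platform annotation, with symbols updated by Entrez ID through RefSeq (GRCm38.p6). Of 45101 probe sets, 34958 had 1 symbol, 932 several and 9211 were unnamed here. Each gene was read by its brightest probe set. The genotypes were compared by limma 3.58.1 (R 4.3.3; lmFit, then eBayes, with group alone in the design), two-sided, with Benjamini-Hochberg adjustment over 18194 genes and a threshold of 0.05. The procedure was tested on simulated data.

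The genes of the group and all lists were chosen with earlier results of these data known, so counts and medians over them are descriptions. Named genes were all members, Csf3r, Cxcr2, Itgam, Gfi1, Mpo, Elane, Kit and Msi2; from the late neutrophil and primary granule lists the 6 with the widest gap between the MSI2-inducible arrays; from other lists the 3 with the largest group difference; and the 6 nearest in profile. Cd34, Ltb4r1, Trem3, Clec4d, Cebpd, Klf5 and the genes of the closing section were chosen after their values were seen. So were the marker genes Epor, Aqp1, Car1, Rhd, Irf8, Siglecf, Mcpt8, Gata2, Cma1, Cd22, Cd3g and Lepr. Listed genes without a probe set of 1 symbol were not analysed here. The alternatives tried were other gene values, a filter on low values, a further quantile step, trend and robust variances, weights per array, a replicate block, leaving out each array and another threshold. Promoter windows are RefSeq's. Figures were drawn with matplotlib 3.10.9.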

Additional observations from a re-analysis of the deposited data

How the results depend on the processing

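All alternatives were planned. No gene of the group passed under any of them. Over all genes, 3 passed as higher and 1 as lower in MSI2-inducible arrays; array weights gave 1 higher, low values left out and quantile normalization once more gave 2 lower each, an adjusted p of 0.10 gave 3 lower, and left-out arrays gave 0 to 0 in each direction. The replicate block left 0 genes higher and 0 lower, with a median of 0.76 for the group and 0.0509, turned in sign, for primary granule genes; same-numbered arrays form 2 pairs without a stated link, and their deviations correlated at 0.134 and 0.0989. The primary granule median, -0.05, also turned when probe sets were kept separate (0.0182) and ran from -0.30 to 0.14 with an array left out. Array weights turned S100a8 (-0.0783), the 1 of 70 differences that turned with all arrays kept, so that 1 gene was lower. With an array left out, 11 of 45 turned: genes higher ran from 0 to 9 and lower from 0 to 9, the group's median from -1.13 to 1.99 and that of other late neutrophil genes from -0.30 to 1.43. Single genes then ran from -1.34 to 3.19 (Lcn2), -1.25 to 2.48 (Ltf), -1.13 to 1.66 (Camp), -0.95 to 1.99 (Ngp), -0.44 to 1.79 (Mmp8), -1.39 to 2.87 (Cd177), -0.0453 to 3.21 (Mmp9), -1.14 to 1.28 (S100a8) and -0.65 to 1.21 (S100a9). The array that turned all 9 was MSI2-inducible replicate 1. The low-value filter removed Mmp8 and Mmp9. The cause was not tested. Dim signal limits Mmp8 and Mmp9.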

Other observations

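Subunits of the phagocyte NADPH oxidase, the enzyme that makes superoxide for killing microbes, showed the array pattern of the granule genes to differing degrees; they were chosen after their values were seen. Cybb, the catalytic subunit, lay at 10.30 and 7.31 in MSI2-inducible replicates 1 and 2, against 8.10, 8.01 and 8.73 in control replicates 1, 2 and 3. The MSI2-inducible arrays lay on either side of the controls, and the difference between groups was 0.52 (limma adjusted p = 0.966). Ncf1, a cytosolic subunit, lay at 11.00 and 9.60 in MSI2-inducible arrays, against 9.79, 9.82 and 9.62 in control arrays. Ncf4, another, lay at 9.40 and 8.30 in MSI2-inducible arrays, against 8.58, 8.53 and 8.53 in control arrays. In both, MSI2-inducible replicate 1 was high and the control arrays were level to within 0.20. Cyba, the membrane partner of Cybb, lay at 8.04 and 7.14 in MSI2-inducible arrays, against 8.07, 6.32 and 7.35 in control arrays, so its high MSI2-inducible array was level with control replicate 1.

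Among antimicrobial and inflammatory genes of the late neutrophil list, Chil3, a chitinase-like lectin, lay at 12.55 and 9.57 in MSI2-inducible arrays, against 11.02, 10.55 and 11.33 in control arrays. Lyz2, lysozyme of myeloid cells, lay at 13.32 and 12.18 in MSI2-inducible arrays, against 12.13, 12.36 and 12.43 in control arrays. Clec4e, a C-type lectin receptor, went against the list, with 6.97 and 7.14 in MSI2-inducible arrays, both below the 8.17, 7.65 and 7.87 of control arrays; its difference of -0.84 was the 1 of the list with an unadjusted p under 0.05 (limma adjusted p = 0.685).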
